A study of Mus musculus with 6 samples.

Results

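The mouse mitochondrial genome is represented by 37 of the 55494 gene rows in the count table, taken as every row whose symbol starts with mt-. They comprise 13 mRNAs, 2 rRNAs and 22 tRNAs, the whole gene set of this small circular chromosome. On the annotation (GENCODE M21, GRCm38), 12 mRNAs, both rRNAs and 14 tRNAs are coded on the plus strand of the reference, and mt-Nd6 and 8 tRNAs on the minus strand. Counts came from bulk RNA-seq of primary muscle stem cells (satellite cells) of wild-type mice, the cells that rebuild muscle fibres after injury. Of 6 libraries, 3 came from control cultures and 3 from cultures given 11,12-EET, an epoxide of arachidonic acid made by cytochrome P450 enzymes, and all cells were cultured for 2 days. No source used here gives the dose, the medium of the controls or the age and sex of the mice. Nor do the labels state whether each library had its own animal or culture. The p-values therefore speak of the spread among these 6 libraries alone, and that spread may be technical.

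Mitochondrial DNA is transcribed from both strands as long polycistronic RNAs that start in or near the control region. The tRNAs that punctuate these precursors are cut out, which frees the rRNAs and mRNAs between them, and most of the mRNAs then gain a short poly(A) tail. The proteins encoded are all membrane subunits of respiratory chain complexes I, III and IV and of ATP synthase (complex V), and each of these complexes also needs subunits imported from the cytosol.

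The libraries held 30371291 to 37243882 counts each, of which 414866 to 575209 fell on mitochondrial rows, so the precision of the abundant rows was set by the spread between libraries and not by counting. RNA had been selected on oligo(dT) before library construction, which favours polyadenylated or A-rich RNA. How far the RNA of each row was kept by this step was not tested. Across protein-coding genes, the difference between EET and control ran with mRNA length. The Spearman correlation of log2 fold change and length over 13946 protein-coding genes was -0.68, given as a description over genes of the same 6 libraries. Calls of cell type markers are from the fit described below, in which 24.6% of all genes tested were higher and 23.3% lower. Satellite cell markers summed to 3145 to 3423 CPM (counts relative to the scaled library total) in controls and 3624 to 3703 in EET libraries, with 4 of 9 higher and 1 lower. Endothelial markers (0 of 8 higher, 5 lower) summed to 265 to 279 CPM in controls and 162 to 176 with EET, and Schwann cell markers (1 of 6 higher, 5 lower) to 398 to 412 and 295 to 324. Differentiating muscle markers (6 of 7 tested higher, 0 lower) summed to 36.6 to 48.6 CPM in controls and 62.6 to 73.2 with EET. Summed CPM of fibro-adipogenic markers (0 of 8 higher, 2 lower) were 442 to 453 in controls and 410 to 421 with EET. Those of macrophage markers (0 of 8 higher, 2 lower) were 307 to 337 and 196 to 381. For pericyte markers (2 of 7 higher, 4 lower) they were 360 to 378 and 325 to 353, and for erythroid markers (0 of 4 tested higher, 0 lower) 1.74 to 46.3 and 2.17 to 25.3. No marker row was at 0 in every library, and the part of these cells in the results below was not tested. In bulk RNA, a change in the share of a cell type and a change in RNA per cell cannot be told apart.

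Of the 37 rows, 15 passed the filter on low counts and were tested: 12 mRNAs, both rRNAs and the proline tRNA row mt-Tp. In edgeR's quasi-likelihood test with Benjamini-Hochberg adjustment over all 16097 genes tested, 11 of the 15 rows were higher with EET and 0 were lower, at an adjusted p under 0.05. The same test called 24.6% of all genes tested higher and 23.3% lower, 47.9% in all. The log2 fold changes of the tested mRNAs had a median of 0.52. When the trend of each library with length and GC content of the mRNAs was removed, 2 rows were called higher and 5 lower, against 17.7% and 14.1% of all genes. The 2 were mt-Rnr1 and mt-Tp, and the 5 were mt-Rnr2, mt-Nd1, mt-Co1, mt-Atp6 and mt-Nd6. No trend was in fact removed from mt-Tp, a row too short for the trend fit, so its call could hardly change. All 12 tested mRNAs then had log2 fold changes below 0, with a median of -0.24. The direction of these mRNAs thus depended on this choice, and both values are given for the tested mitochondrial rows below. The CPM of every EET library lay above that of every control in 12 of the 15 rows and below in 0, against 29.6% and 28% of all genes tested.

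Some of the rows share their sequence with the nuclear genome, which carries a copy of one stretch of the mitochondrial genome. On GRCm38, 7 annotated unprocessed pseudogenes on the minus strand of chr1:24611535-24616197 repeat, in the same order, chrM:6390-11042, from the last part of mt-Co1 to the first part of mt-Nd4. Spacing between neighbouring aligned stretches matched on both chromosomes (140, 233, 2, 69 and -4 bases, the last an overlap). The exception was between those of mt-Nd3 and mt-Nd4l, with 73 bases on chrM and 74 on chromosome 1. The copies of mt-Co2 (Gm28661, 681 bases), mt-Atp6 (Gm10925, 678 bases), mt-Co3 (Gm28437, 783 bases), mt-Nd4l (Gm10222, 294 bases) and mt-Nd4 (Gm28439, its first 876 bases) had 100% identity over these lengths. A read of 150 bases from them has no base that tells the 2 genomes apart. The first bases of Gm29216 lie outside its alignment to mt-Co1. Within the aligned 345 bases of mt-Nd3 and 483 of mt-Co1, only 1 difference was found in each of the other 2 copies. It is T3C in mt-Nd3 against Gm28438, counted from the first base of the gene, and A1066T in mt-Co1 against Gm29216. These follow, read 5′ to 3′ from the GENCODE M21 transcripts with the differing base in capitals, at chrM:9459-9481 (plus), chr1:24613097-24613119 (minus), chrM:6390-6413 (plus) and chr1:24616165-24616188 (minus) in turn.
mt-Nd3: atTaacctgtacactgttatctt
Gm28438: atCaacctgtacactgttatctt
mt-Co1: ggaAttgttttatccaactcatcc
Gm29216: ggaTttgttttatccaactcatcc

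A more diverged copy on chromosome 2 shows what a readable difference looks like. The first 81 bases of mt-Co2 (chrM:7013-7093, plus) and Gm28661 (chr1:24615485-24615565, minus) are the same. Gm13341 (chr2:22587882-22587962, minus; 95.9% identity over the gene) differs at C25T and G57A, in capitals.
mt-Co2: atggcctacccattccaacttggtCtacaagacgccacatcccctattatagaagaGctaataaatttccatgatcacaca
Gm28661: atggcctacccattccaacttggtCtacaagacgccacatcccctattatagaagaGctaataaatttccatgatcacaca
Gm13341: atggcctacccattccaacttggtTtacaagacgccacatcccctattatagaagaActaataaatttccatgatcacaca

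Counts of the mRNA rows were low inside this block. Of all 150-base windows of a row, the share found exactly in a nuclear transcript was 99.4% for mt-Co2 and mt-Atp6, 99.8% for mt-Co3, 97.0% for mt-Nd3 and 98.0% for mt-Nd4l. It was 59.2% for mt-Nd4, 23.6% for mt-Co1 and 0% for mt-Atp8, mt-Nd1, mt-Nd2, mt-Nd5, mt-Nd6, mt-Cytb and both rRNAs. Per kilobase of row, the 6 mRNA rows wholly inside the block (mt-Co2, mt-Atp8, mt-Atp6, mt-Co3, mt-Nd3 and mt-Nd4l) had control levels of 0.441 to 15.2 CPM. The other 7 had 509 to 3347 CPM per kilobase, the lowest of them 33.5 times the highest inside the block. The short mt-Atp8 row, at 0.441 CPM per kilobase the lowest of all, has no annotated copy of its own and none of its windows in a nuclear transcript. All but its last 43 bases lie between the stretches matched by Gm28661 and Gm10925, which are 233 bases apart on both chromosomes; the sequence between them on chromosome 1 was not analysed here. No source used here gives how reads that match more than one place were counted, so levels and changes of these 6 rows are uncertain, and those of mt-Nd4 and mt-Co1 in part. The 7 copy rows held 642, 658 and 610 counts in controls 1 to 3 and 946, 788 and 759 in EET libraries 1 to 3. In this sum every EET library was above every control. Not every copy row followed it: the log2 fold changes of Gm28439, Gm10222 and Gm10925 were -0.10, -0.49 and 0.29 and did not pass (edgeR adjusted p = 0.832, 0.439 and 0.116).

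**Figure D1:**
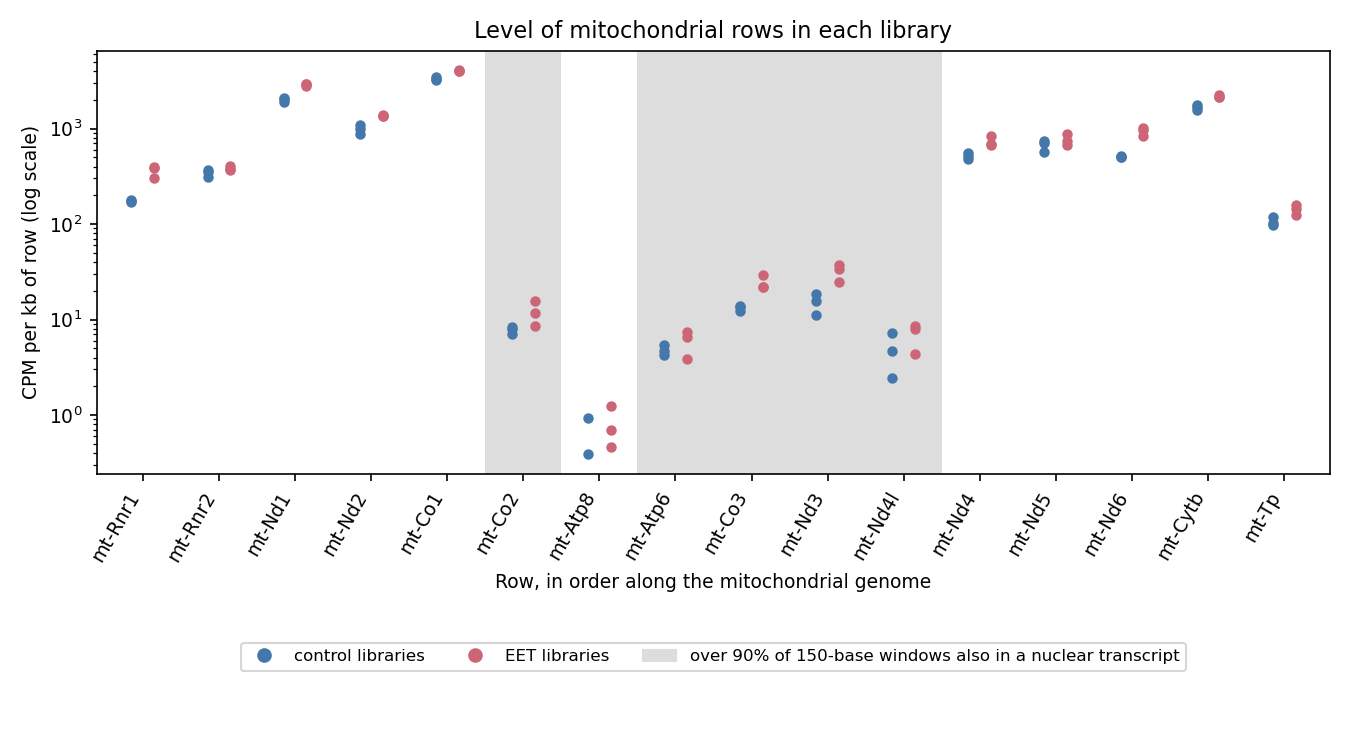
Level of each mitochondrial row with counts in at least 3 libraries, as CPM per kilobase of row on a log axis, in order along the genome. Points are single libraries (3 control, 3 EET); the 0 of mt-Atp8 in control 2 cannot be drawn, and the shaded rows, with over 90% of windows also in a nuclear transcript, lie below every unshaded row but mt-Atp8.

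Of the 2 rRNAs, mt-Rnr1 was higher with EET and mt-Rnr2 was not called. mt-Rnr1 encodes the 12S rRNA of the small mitochondrial ribosomal subunit (chrM:70-1024, plus). Its counts were 6356, 6296 and 5171 in controls and 13137, 11645 and 9386 with EET. The controls were nearly level, at 167 ± 2.13 CPM (SD, n = 3 here and for all group means below), and the EET libraries, at 346 ± 47.3 CPM, all lay well above them, with EET 3 the lowest. Its log2 fold change was 1.05 ± 0.09 (SE; edgeR adjusted p = 1.22e-06), and with the trend removed it was still higher, at 0.28 (edgeR adjusted p = 0.000132). mt-Rnr2 encodes the 16S rRNA of the large subunit (chrM:1094-2675, plus) and held 18543, 21648 and 17536 counts in controls and 20513, 18672 and 20476 with EET. The corresponding CPM were 487, 580 and 558 in controls and 585, 597 and 636 with EET, adjacent but not overlapping. Its log2 fold change of 0.16 ± 0.07 did not pass the test (edgeR adjusted p = 0.087), and with the trend removed it was lower, at -0.29 (edgeR adjusted p = 0.0237).

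Because both rRNAs are cut from the same precursor, their ratio can be read within a library, free of scaling. The count of mt-Rnr1 per count of mt-Rnr2 was 0.343, 0.291 and 0.295 in controls and 0.640, 0.624 and 0.458 with EET. All EET ratios lay above all control ratios (log2 difference 0.88, exact two-sided permutation p = 0.1, the smallest that 3 against 3 libraries can give). The 2 rows differ in length (955 and 1582 bases). Pairs of like length were therefore set side by side. They were chosen after the values were seen, so their p-values are descriptions only. mt-Rnr1 per mt-Nd1 (955 and 957 bases, 35.8% and 37.6% GC) was 0.0911, 0.0848 and 0.0846 in controls and 0.139, 0.132 and 0.104 with EET, again without overlap (log2 difference 0.51, exact permutation p = 0.1). mt-Rnr2 per mt-Co1 (1582 and 1545 bases) was 0.105 ± 0.00696 in controls and 0.0975 ± 0.00257 with EET, and these ranges overlapped (exact permutation p = 0.3). With the trend removed, mt-Rnr1 had 0.28 and mt-Rnr2 -0.29. What part length has in the difference between the 2 rRNA rows was not tested.

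**Figure D2:**
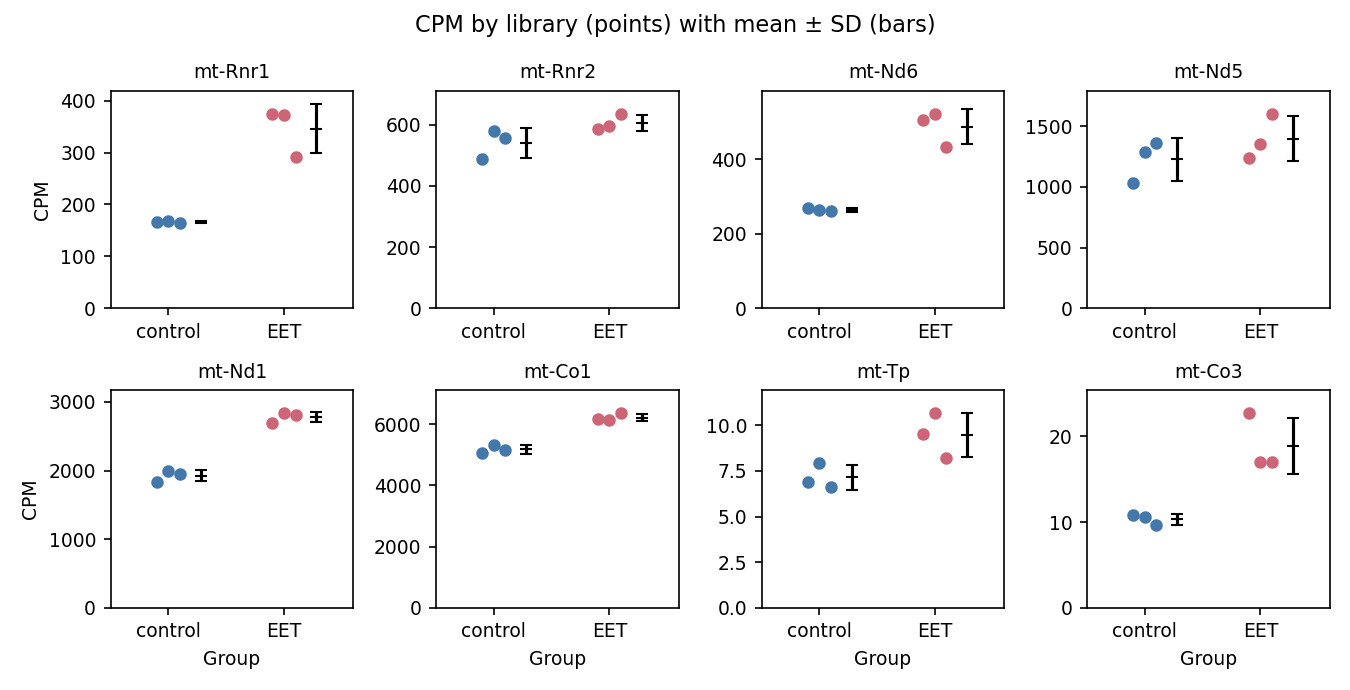
CPM of 8 mitochondrial rows in each library (points; 3 control, 3 EET), with the group mean ± SD as bars and axes from 0. mt-Rnr1 and mt-Nd6 separate the groups widely, while mt-Nd5 overlaps.

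Complex I, the NADH dehydrogenase that feeds electrons into the chain, takes 7 of the 13 mRNAs, and 5 of them were higher with EET. mt-Nd1 (chrM:2751-3707, plus) held 69736, 74257 and 61122 counts in controls and 94362, 88534 and 90231 with EET. The EET libraries, at 2775 ± 75 CPM, all lay above the controls, at 1922 ± 80.6 CPM, and the log2 fold change was 0.53 ± 0.06 (edgeR adjusted p = 1.32e-05; -0.24 and 0.0394 with the trend removed). For mt-Nd2 the CPM were 906, 1127 and 1028 in controls and 1415, 1425 and 1409 with EET. The EET libraries were almost level and above all controls, with a log2 fold change of 0.47 ± 0.08 (edgeR adjusted p = 0.000137). Removing the trend gave -0.24 (edgeR adjusted p = 0.107).

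mt-Nd4 and mt-Nd4l lie next to each other and share 7 bases, the start of the first being read in another frame at the end of the second. The last 30 bases of mt-Nd4l (chrM:10144-10173, plus) are shown with the shared bases in capitals.
mt-Nd4l: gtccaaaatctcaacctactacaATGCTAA
mt-Nd4 held 657, 708 and 766 CPM in controls and 926, 944 and 1152 with EET, all EET libraries being above all controls. The log2 fold change was 0.50 ± 0.09 (edgeR adjusted p = 0.000262), and -0.03 with the trend removed (edgeR adjusted p = 0.926). mt-Nd4l, inside the copied block, had only 53, 27 and 68 counts in controls and 45, 73 and 82 with EET. The groups overlapped, and its log2 fold change of 0.53 ± 0.37 did not pass (edgeR adjusted p = 0.260; -0.94 and 0.155 with the trend removed). mt-Nd3, also inside the block, had 5.44, 6.48 and 3.91 CPM in controls and 11.7, 13 and 8.67 with EET. Its groups did not overlap, and its log2 fold change was 1.07 ± 0.19 (edgeR adjusted p = 0.000312; -0.28 and 0.150 with the trend removed). The copy row Gm28438 had a log2 fold change of 1.15 ± 0.48 and did not pass (edgeR adjusted p = 0.0605), while the copies of mt-Nd4l and mt-Nd4, as given above, had values below 0.

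mt-Nd5 and mt-Nd6 are coded on opposite strands and their ends overlap by 14 bases. The last 30 bases of each, in its own reading direction, are shown with the shared bases in capitals, from chrM:13536-13565 (plus) and chrM:13552-13581 (minus).
mt-Nd5: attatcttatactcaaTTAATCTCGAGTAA
mt-Nd6: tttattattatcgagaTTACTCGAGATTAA
The library protocol marks strand with dUTP, but no source used here gives whether the counting used strand, so antisense reads over either row cannot be told apart from its own. On its own strand mt-Nd6 has the lowest A content of the mRNAs, 22.2%, and a longest run of A of 3 bases. Which RNA over this row was kept by the selection on oligo(dT) was not tested. mt-Nd5 held 1029, 1290 and 1360 CPM in controls and 1239, 1353 and 1601 with EET. The groups overlapped, and the log2 fold change of 0.19 ± 0.11 did not pass (edgeR adjusted p = 0.172; -0.17 and 0.551 with the trend removed). mt-Nd6, the sole mRNA on the minus strand, held 269, 262 and 260 CPM in controls and 506, 522 and 434 with EET. Controls were nearly level and every EET library lay far above them. It was higher by 0.88 ± 0.07 on the log2 scale (edgeR adjusted p = 1.22e-06), and with the trend removed it was lower, at -0.24 (edgeR adjusted p = 0.00114).

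The count of mt-Nd6 per count of mt-Nd5 was 0.262, 0.203 and 0.191 in controls and 0.409, 0.386 and 0.271 with EET. The lowest EET library, EET 3, was close to the highest control, control 1, and the ranges did not overlap (exact permutation p = 0.1). These libraries also lay nearest to the other group in their slope with mRNA length. The slopes, in log2 per doubling of length, were 0.12, 0.23 and 0.24 in controls 1 to 3 and -0.27, -0.21 and -0.11 in EET libraries 1 to 3. mt-Nd6 spans 519 bases and mt-Nd5 1824, and with the trend removed their log2 fold changes were -0.24 and -0.17, no longer apart in that direction. The minus-strand row mt-Nd6 made up 2.33, 2.06 and 2.09% of mitochondrial mRNA counts in controls and 3.28, 3.31 and 2.65% with EET, without overlap (exact permutation p = 0.1).

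mt-Cytb encodes cytochrome b, the one mitochondrial subunit of complex III, which passes electrons to cytochrome c. It held 68225, 75888 and 61006 counts in controls and 86058, 77452 and 83617 with EET. In CPM the EET libraries (2510 ± 77.1) all lay above the controls (1922 ± 121), and the log2 fold change was 0.39 ± 0.07 (edgeR adjusted p = 0.000276; -0.27 and 0.0612 with the trend removed).

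Complex IV, cytochrome c oxidase, holds mt-Co1, mt-Co2 and mt-Co3 as its catalytic core, and all 3 rows were higher. mt-Co1 (chrM:5328-6872, plus) was the most abundant row, with 191968, 198897 and 161683 counts in controls and 215693, 192001 and 204323 with EET. In CPM it was 5044, 5328 and 5141 in controls and 6150, 6143 and 6348 with EET, tight within groups and without overlap. Its log2 fold change was the smallest of those that passed, 0.26 ± 0.06 (edgeR adjusted p = 0.00281), and with the trend removed it was lower, at -0.19 (edgeR adjusted p = 0.00664). mt-Co2, inside the copied block, held 5.47, 5.68 and 4.83 CPM in controls and 10.7, 8.0 and 5.90 with EET. EET 3 lay just above the highest control, and the log2 fold change was 0.62 ± 0.19 (edgeR adjusted p = 0.0145). That call was lost without control 3 (0.56, edgeR adjusted p = 0.0642), without EET 1 (0.38, edgeR adjusted p = 0.108) and with the trend removed (-0.37, edgeR adjusted p = 0.0754). mt-Co3, in the block as well, held 10.8, 10.6 and 9.60 CPM in controls and 22.7, 17.1 and 17 with EET. No EET library overlapped the controls, and the log2 fold change was 0.87 ± 0.13 (edgeR adjusted p = 5.45e-05; -0.03 and 0.886 with the trend removed). Its copy Gm28437, with which it shares all but its last base, had a log2 fold change of 0.92 ± 0.15 (edgeR adjusted p = 0.000184), and the copy of mt-Co2, Gm28661, one of 0.66 ± 0.21 (edgeR adjusted p = 0.0173).

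Complex V makes ATP, and its 2 mitochondrial subunits share a transcript in overlapping frames. The overlap of 43 bases (chrM:7927-7969, plus) opens with the start codon of mt-Atp6, in capitals.
mt-Atp6: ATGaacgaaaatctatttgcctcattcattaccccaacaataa
Both rows lie inside the block and were scarce. mt-Atp6 held 111, 138 and 101 counts in controls and 178, 141 and 84 with EET. EET 3 was below every control, and the log2 fold change of 0.31 ± 0.23 did not pass (edgeR adjusted p = 0.30). Without EET 3 it was 0.55 (edgeR adjusted p = 0.0335), and with the trend removed it was lower, at -0.68 (edgeR adjusted p = 0.0126). mt-Atp8 held 3, 0 and 6 counts in controls and 5, 8 and 3 with EET and was not tested. For the 0 in control 2, 3 counts, or 0.0804 CPM, is the limit that counting error alone allows.

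Mitochondrial mRNAs often end inside a stop codon that the poly(A) tail completes. The annotated ends of mt-Co3 (chrM:9361-9390), mt-Nd4 (chrM:11515-11544) and mt-Cytb (chrM:15259-15288), all plus strand, show this, with the unfinished codon in capitals. They bear on the data because these libraries were selected on the tail.
mt-Co3: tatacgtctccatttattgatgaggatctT
mt-Nd4: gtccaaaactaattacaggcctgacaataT
mt-Cytb: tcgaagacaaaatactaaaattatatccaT

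Transfer RNA rows were almost empty. All 14 plus-strand tRNA rows and 5 of the 8 on the minus strand held 0 counts in every library, which allows at most 3 counts, or 0.0788 to 0.0960 CPM, per library. mt-Tc and mt-Te, for cysteine and glutamic acid, held 1 count each in EET 1 and EET 3 and 0 elsewhere. The exception was the proline tRNA row mt-Tp, which lies beside the control region and is printed whole (chrM:15356-15422, minus).
mt-Tp: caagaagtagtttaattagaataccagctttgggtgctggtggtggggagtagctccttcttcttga
It held 263, 296 and 208 counts in controls and 335, 333 and 265 with EET. In CPM these were 6.91, 7.93 and 6.61 against 9.55, 10.7 and 8.23, without overlap but with EET 3 close to control 2. The log2 fold change was 0.41 ± 0.14 (edgeR adjusted p = 0.0287; 0.40 and 0.0262 in the fit with the trend removed, which gave a row this short no offset). The call was lost without control 1, control 3, EET 1 or EET 2 (edgeR adjusted p = 0.0690, 0.111, 0.0610 and 0.134) and with library totals as the scale (0.0599). The row is 67 bases long, so a full read of 150 bases on it runs past its ends. Whether such reads came from the tRNA or from longer RNA of that strand was not tested.

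As shares of a library, mitochondrial rows took 1.25, 1.37 and 1.37% of counts in controls and 1.58, 1.63 and 1.72% with EET, without overlap. The summed share of each class was higher, but that of tRNA rests almost wholly on mt-Tp, as 19 of the 22 tRNA rows held 0 counts. mRNA rows went from 1.25 ± 0.0639% to 1.55 ± 0.0693%, rRNA rows from 0.0725 ± 0.00490% to 0.0929 ± 0.00124%, and tRNA rows from 0.000731 ± 0.0000630% to 0.000928 ± 0.000107% (exact permutation p = 0.1 for each). Within the mitochondrial counts, the classes kept close proportions. mRNA made up 94.5 ± 0.0926% in controls and 94.3 ± 0.279% with EET, and rRNA 5.45 ± 0.0922% and 5.67 ± 0.271%, with overlapping ranges (exact permutation p = 0.4 and 0.3). The rRNA share joins mt-Rnr1, which was called higher, and mt-Rnr2, which was not.

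The makeup of the mRNA pool shifted slightly. mt-Co1 supplied 43.6, 41.7 and 41.3% of mitochondrial mRNA counts in controls and 39.9, 39.0 and 38.8% with EET, lower in every EET library (exact permutation p = 0.1). mt-Nd1 supplied 15.9, 15.6 and 15.6% and then 17.4, 18.0 and 17.1%, higher in every EET library (exact permutation p = 0.1). mt-Cytb, at 15.7 ± 0.226% and 15.8 ± 0.0831%, overlapped (exact permutation p = 0.4). The 6 rows inside the copied block together supplied 0.210 ± 0.0170% and 0.282 ± 0.0550% (exact permutation p = 0.2).

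A second fit, with each library scaled to its own mitochondrial mRNA total, asked which rows differed from the pool. Of the 12 tested mRNAs, 3 were higher relative to the pool and 0 lower, against 8.59% and 44.5% of all genes tested under this scale, which moved the median of all genes to -0.37. They were mt-Nd6 (0.51, edgeR adjusted p = 0.000284), mt-Nd3 (0.70, 0.00672) and mt-Co3 (0.50, 0.00735). The latter pair lie in the copied block. mt-Nd3 lost its call without EET 2 (0.58, edgeR adjusted p = 0.0536), and mt-Co3 without EET 1 (0.33, 0.0653). mt-Rnr1 was higher than the pool (0.69, edgeR adjusted p = 3.82e-05) and mt-Rnr2 lower (-0.21, 0.0404), the latter no longer called when any library but control 1 was left out. The other mRNAs did not pass. Among them, mt-Nd5 had a log2 fold change of -0.18 (edgeR adjusted p = 0.155), which became a lower call without control 1 (-0.26, 0.0211) or without EET 3 (-0.26, 0.0464).

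Row length ordered these differences. Over the 14 mRNA and rRNA rows tested, the Spearman correlation of log2 fold change and row length was -0.75, and over the 7 of them with no window in a nuclear transcript it was -0.93. Both are descriptions, as the rows share the same 6 libraries. The shortest of those 7, mt-Nd6 with 519 bases, had 0.88, and the longest, mt-Nd5 with 1824, had 0.19. Nuclear protein-coding genes of 500 to 2000 bases went the same way, with a correlation of -0.48 over 3264 genes and a median log2 fold change of 0.55. Set beside nuclear genes in the same 200-base step of mRNA length, 11 of the 14 rows lay below the median of their step and 7 of these below its lower quartile. In the step from 800 to 1000 bases, 331 nuclear genes had a median of 0.88 with quartiles of 0.63 and 1.09. mt-Nd1, at 0.53, lay under this range, while mt-Rnr1, at 1.05, lay in its upper part. The 3 rows above their median were mt-Rnr1, mt-Nd3 and mt-Nd4l, and the step of the last 2 held only 17 nuclear genes. Without these 2, 11 of 12 rows were below. Nuclear lengths include untranslated ends, whereas the length of a mitochondrial row is that of the annotated gene. An RNA that runs past its row, as where mt-Atp8 and mt-Atp6 share a transcript, is longer than the length used. The trend was removed by row length, so values of such rows with the trend removed are uncertain.

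**Figure D3:**
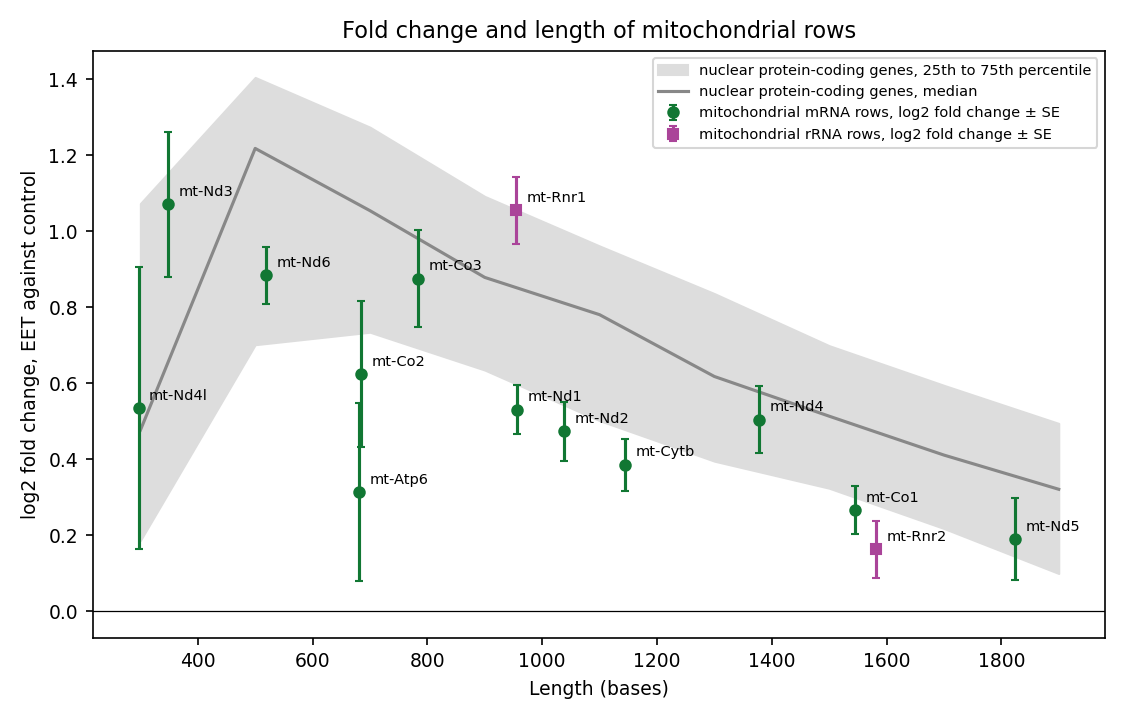
Log2 fold change (EET against control) of mitochondrial rows against row length in bases, with the median and quartiles of nuclear protein-coding genes in 200-base steps (line and shading); error bars are SE. 11 of 14 rows lie below the nuclear median of their step, and mt-Rnr1 lies above it.

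The respiratory chain is built from both genomes, so each complex was also read against its nuclear subunits. Of 75 nuclear subunit genes tested, 70 were higher with EET and 0 lower, with a median log2 fold change of 1.08, where 24.6% of all genes tested were higher and 23.3% lower and their median was 0.0050. With the trend removed 39 were higher and 5 lower, with a median of 0.20, beside 17.7% and 14.1% of all genes. They are short, with a median mRNA length of 908 bases. In complex I, 34 of 36 nuclear genes were higher (median 1.07) beside 5 of 7 mitochondrial ones (median 0.53). Examples are Ndufv2 (1.18, and 0.78 with the trend removed), part of the NADH-binding module, and Ndufb5 (1.16 and 0.43). In complex III, 8 of 9 nuclear genes were higher (median 0.96), among them the small subunits Uqcrq (1.74, and 1.26 with the trend removed) and Uqcr11 (1.95 and 0.57), beside mt-Cytb at 0.39. In complex IV, 11 of 11 were higher (median 1.34), such as Cox4i1 (1.36, and 0.37 with the trend removed) and Ndufa4 (1.34 and 0.24), beside 3 of 3 mitochondrial rows (median 0.62). In complex V, 14 of 15 were higher (median 0.96), with Atp5pb at 0.89 and Atp5j at 1.24 (0.46 and 0.27 with the trend removed), beside mt-Atp6 at 0.31, which did not pass. Complex II, succinate dehydrogenase, has nuclear subunits only. There 3 of 4 were higher (median 0.67), with Sdhd at 0.73 and Sdhb at 0.88. With the trend removed these had 0.10 and 0.18, and Sdhd alone of the named subunits was no longer called. The subunits named are the 2 of each complex with the smallest p. In that fit 18 of 36 nuclear genes were higher and 1 lower in complex I, and 2 of 4 and 0 in complex II. The counts were 4 of 9 and 2 in complex III, 7 of 11 and 0 in IV, and 8 of 15 and 2 in V.

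The balance between the genomes was then measured inside each library. In complex IV, nearly all mitochondrial counts came from mt-Co1. It supplied a mean of 42.2% of mitochondrial mRNA counts in controls, against 0.0435% for mt-Co2 and 0.0843% for mt-Co3, both in the copied block. The ratio for this complex thus sets 11 nuclear genes (median mRNA length 659 bases) against mainly 1 row of 1545 bases. Nuclear subunit counts per mitochondrial count were 0.0832, 0.0775 and 0.0757 in controls and 0.179, 0.179 and 0.126 with EET. The ratio was higher in every EET library, and on the log2 scale mitochondrial over nuclear counts differed by -1.02 (exact permutation p = 0.1; -0.44 with the trend removed). For complex I the log2 ratio was 1.99 ± 0.19 in controls and 1.69 ± 0.23 with EET, for complex III 1.38 ± 0.16 and 1.07 ± 0.16, and over all complexes 0.82 ± 0.15 and 0.58 ± 0.17. These 3 had overlapping libraries (exact permutation p = 0.2 for each). Complex V, whose mitochondrial rows both lie in the copied block, had -10.18 ± 0.23 and -10.38 ± 0.43 (exact permutation p = 0.6).

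**Figure D4:**
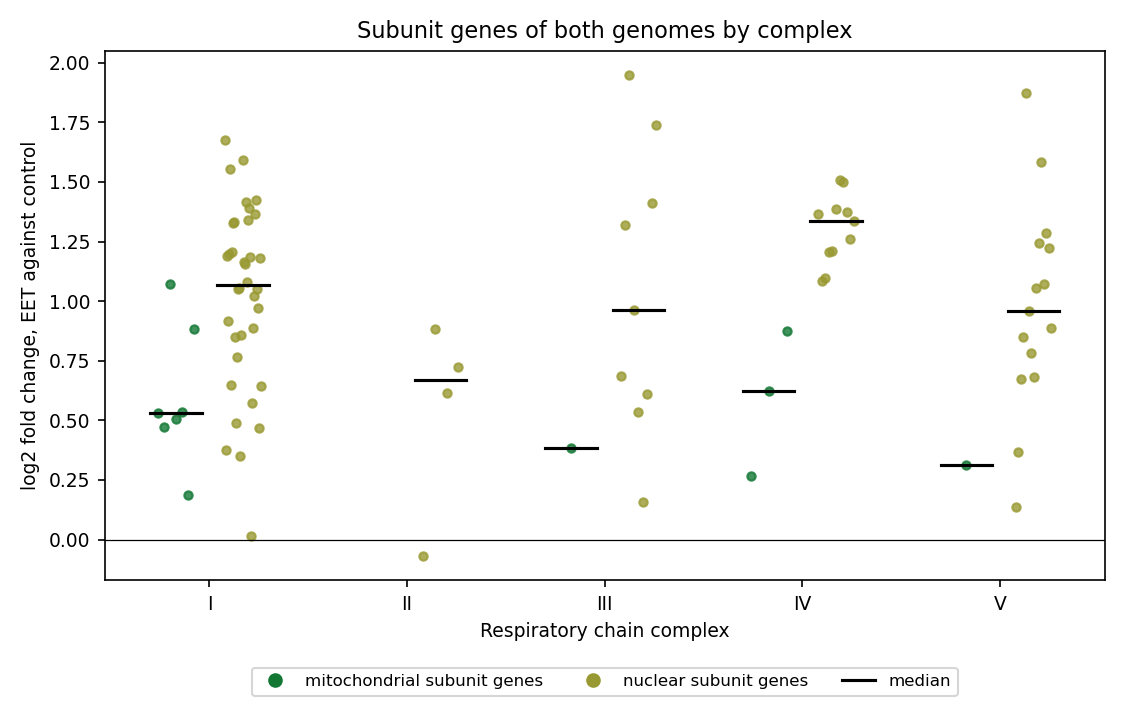
Log2 fold change (EET against control) of mitochondrial and nuclear subunit genes of each respiratory chain complex, 1 point per tested gene, with medians as lines. In complexes I, III, IV and V the nuclear median (0.96 to 1.34) lies above the mitochondrial one (0.31 to 0.62).

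Genes that maintain and express mitochondrial DNA are all nuclear, and 86 of them in 6 lists were followed. Of the 85 tested, 40 were higher, 9 lower and 36 not called, with a median log2 fold change of 0.23, beside 24.6% of all genes tested higher and 23.3% lower. With the trend removed 25 were higher and 4 lower, beside 17.7% and 14.1%. Tfam packs mitochondrial DNA and starts its transcription. It held 55.3, 53.4 and 52.6 CPM in controls and 84.2 ± 4.03 CPM with EET, without overlap. Its log2 fold change of 0.65 ± 0.07 (edgeR adjusted p = 6.67e-06) was larger with the trend removed (0.87, edgeR adjusted p = 2.31e-09). Ssbp1, the single-stranded DNA binding protein of the replication fork, rose too (0.77, edgeR adjusted p = 1.51e-05; 1.00 with the trend removed). The replication and packaging list had 8 of 16 genes higher and 3 lower (median 0.36).

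In the transcription list, 4 of 10 genes were higher and 0 lower (median 0.42), beside 24.6% and 23.3% of all genes tested. The polymerase Polrmt itself had a log2 fold change of 0.08 (edgeR adjusted p = 0.454) and its partner Tfb2m one of -0.10 (0.393), and neither passed. With the trend removed Polrmt was higher (0.19, edgeR adjusted p = 0.0217) and Tfb2m lower (-0.25, 0.0178). Mrpl12, a ribosomal protein also reported to bind the polymerase, went from 81.1 to 200.5 CPM (log2 fold change 1.31, and 0.70 with the trend removed). Mterf3, of the termination factor family, was higher at 0.62, a call lost with the trend removed (0.13).

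RNA processing and modification had 18 of 28 genes higher and 1 lower (median 0.38), beside 24.6% and 23.3% of all genes tested. With the trend removed it had 7 higher and 1 lower, beside 17.7% and 14.1%. Hsd17b10, a subunit of the RNase P that cuts the 5′ ends of tRNAs, had a log2 fold change of 0.70, and Ngrn, needed for 16S rRNA assembly, 0.72. With the trend removed they had -0.10 and 0.13 and were not called. In the list of stability, polyadenylation and decay, 3 of 7 tested genes were higher and 1 lower (median 0.15). The one that fell was Lrpprc, which stabilises most mitochondrial mRNAs. It held 171, 168 and 168 CPM in controls and 132 ± 4.0 CPM with EET, all EET libraries being below all controls. The difference was -0.36 on the log2 scale (edgeR adjusted p = 0.000258), and -0.09 with the trend removed (edgeR adjusted p = 0.200). Its partner Slirp had a mean of 0.0852 CPM in controls and 0.0925 with EET and was not tested. Rexo2, an exonuclease of short RNA fragments, was higher at 0.73, and at -0.0040 with the trend removed.

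Among translation factors 6 of 14 were higher and 0 lower (median 0.23). With the trend removed 5 were higher and 1 lower (median 0.12), beside 17.7% and 14.1% of all genes. The elongation factors Tsfm (0.76) and Tufm (0.39) were the leading pair, and neither was called with the trend removed (0.16 and 0.01). Of the regulators of mitochondrial biogenesis, 1 of 10 was higher and 4 were lower (median -0.06), beside 24.6% and 23.3% of all genes tested. Once the trend was removed, 3 were higher and 1 lower, beside 17.7% and 14.1%. The mRNAs of these regulators are long, with a median of 4644 bases. Ppargc1a, the best-known coactivator of this programme, fell from 2.84 to 1.55 CPM (log2 fold change -0.86, edgeR adjusted p = 0.0129). That call was lost without control 3 (-0.66, edgeR adjusted p = 0.0853), without EET 2 (-0.74, 0.0601) and with the trend removed (-0.42, 0.248). Pprc1, of the same family, fell by 0.37 on the log2 scale and had 0.0074 with the trend removed. Esrra, a nuclear receptor that works with them, was the one higher gene, at 0.43 (0.17 and not called with the trend removed), and Nrf1, an activator of respiratory genes, had 0.07 and did not pass (edgeR adjusted p = 0.465), but was called higher with the trend removed (0.21, edgeR adjusted p = 0.00782).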

How the data were processed

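Poly(A) RNA of 6 libraries (3 control, 3 EET) was sequenced as paired reads, per the labels' protocols. The authors deposited 1 table of raw read counts per gene symbol; per the submitters' processing notes, FastQC, cutadapt, DESeq2 and GRCm38 were used. The aligner, the counter, its strand setting, its annotation and its treatment of multiply mapped reads: not given in the sources used here. Groups were taken from sample titles.

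Counts were analysed as deposited with edgeR 4.0.16 (R 4.3.3; filterByExpr, TMM, robust quasi-likelihood fit, 2 groups, no covariate) over all genes, with Benjamini-Hochberg adjustment and a threshold of 0.05. CPM use TMM-scaled totals. A second fit used mitochondrial mRNA totals as library sizes. Shares and ratios were compared by exact two-sided permutation tests (smallest p 0.1). The fit was tested on simulated data: of genes changed 1.5-fold, 2-fold and 4-fold, 67.2%, 90.8% and 100% were recovered among 15762, and 14 of the 181 genes called had not been changed. The simulation changed 200 genes, gave every gene the same dispersion and held no length trend. Its rates are therefore not those of the fit on the real counts. Library totals are given in the report; limits for counts of 0 (3 counts) cover counting error only.

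Gene positions, lengths and sequences came from GENCODE M21 (53292 rows matched by symbol, 407 more through RefSeq synonyms), and nuclear copies from BLAST 2.17.0 and exact matches of 150-base windows. The length and GC trend was a loess (span 0.3) over protein-coding genes per library, entered as an offset. It gave no offset for rows as short as mt-Tp and rests on few nuclear genes under 400 bases.

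Every mitochondrial row is accounted for; of each nuclear list, the 2 members with the smallest p and 7 genes by name were described. Members and lists were chosen with earlier results of these data known. Alternatives were other scalings and filters, DESeq2 1.42.0, limma-voom (limma 3.58.1), halved counts, a replicate block and leaving out libraries. Summing rows with their nuclear copies, and leaving out control 1 and EET 3 together, were added after seeing the data. No 2 libraries were alike within sampling noise.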

Additional observations from a re-analysis of the deposited data

How the results depend on the processing

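Removing the length and GC trend changed most. Mitochondrial rows called went from 11 to 2 higher and from 0 to 5 lower, nuclear upkeep genes from 40 to 25 higher and from 9 to 4 lower, and nuclear subunits from 70 to 39 higher and from 0 to 5 lower. The 2 mitochondrial rows still higher include mt-Tp, which the trend fit gave no offset. Among mitochondrial rows and the upkeep genes and subunits named above, log2 fold changes that turned sign were mt-Rnr2 -0.29, mt-Nd1 -0.24, mt-Nd2 -0.24, mt-Co1 -0.19, mt-Co2 -0.37, mt-Atp6 -0.68, mt-Co3 -0.0262, mt-Nd3 -0.28, mt-Nd4l -0.94, mt-Nd4 -0.0283, mt-Nd5 -0.17, mt-Nd6 -0.24, mt-Cytb -0.27, Hsd17b10 -0.10, Rexo2 -0.0040 and Pprc1 0.0074. Some nuclear subunits not named above turned too, such as Ndufa3 (0.65 to -0.62) and Atp5g3 (0.68 to -0.33). The cause of the trend was not tested. mt-Rnr1 stayed called higher in all 17 alternatives run (0.28 to 1.17). The other rows turned under no other scaling, filter or tool.

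Relative to the mitochondrial mRNA pool, leaving out control 1 and EET 3 together gave 5 higher and 1 lower in place of 3 and 0, with mt-Atp6 at 0.17, and mt-Nd5 at -0.0461 in the fit over all genes. Without mt-Co1 in the pool, mt-Cytb had -0.0582 and mt-Tp -0.0359, and with copies summed mt-Nd4l had -0.19. Nrf1 had -0.0013 with library totals.

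Leaving out 1 library at a time gave 9 to 12 rows higher and 0 lower, and 2 to 4 higher and 0 to 1 lower relative to the pool. It gave 31 to 40 upkeep genes higher and 5 to 10 lower (5 without control 3). The tRNA share of mitochondrial counts differed by -0.00187 to 0.00603 percentage points, below 0 without control 3 (-0.000872) or EET 2. The complex V log2 ratio ran from -0.35 to 0.0462, the last without EET 3. Relative values that turned were mt-Atp6 (range -0.26 to 0.21, above 0 without control 2 or EET 3), mt-Nd4l (-0.19 to 0.54, below 0 without control 2 or EET 3), mt-Tp (-0.0577 to 0.15, below 0 without control 3 or EET 2) and mt-Co2 (-0.0062 without EET 1, to 0.47 without EET 3).

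Replicate numbers did not pair the libraries: same-numbered deviations correlated at -0.0035, -0.05 and 0.0089, and not every library correlated best with its own number. With the replicate number as a block, 13 rows were higher and 0 lower, and 1 mRNA (mt-Nd5) was lower relative to the pool. The empty tRNA rows and mt-Atp8, with at most 8 counts in a library, were not tested.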

Other observations

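Other copies of mitochondrial DNA in the nuclear genome were counted at low levels. On chromosome 2, Gm13340 (97.6% identity with mt-Co1 over 1545 bases) held 102, 196 and 138 counts in controls and 201, 201 and 128 with EET, and the groups overlapped. Gm13341, the diverged copy of mt-Co2, held 64, 44 and 58 counts and then 84, 106 and 68, higher in every EET library (log2 fold change 0.75 ± 0.27, edgeR adjusted p = 0.0319). Gm13339, a copy of part of mt-Nd2 (96.7% identity over 510 bases), held 10 to 18 counts in controls and 14 to 19 with EET. On chromosome 4, 3 neighbouring processed pseudogenes repeat 57.9% of mt-Nd5, 100% of mt-Nd6 and 99.8% of mt-Cytb, at 92.3, 93.6 and 92.9% identity. None of the 3 held more than 10 counts in any library.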
